A study of Mus musculus with 4 samples.

Results

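The mitosis genes described here are 36 genes whose transcripts are most abundant in G2 and M phase, the stages in which a cell prepares for division and divides. They were chosen as a list of gene symbols and not by a rule on measured values, but with earlier results of these data known. All 36 were found among the 55471 genes of the deposited count tables. Droplet 3′ single-cell RNA sequencing had been carried out on whole mouse lung at E18.5, late in gestation. There were 2 Dnmt1 CKO libraries, in which Tbx4-rtTA and Tet-O-Cre are combined with Dnmt1-D/D alleles, and 2 wild-type libraries, for which no allele is listed. A Tbx4-driven activator of this kind acts in the lung mesenchyme, where it switches on Cre, and Cre deletes Dnmt1, the enzyme that copies DNA methylation onto newly made strands. Other lineages of the mutant lung are not the intended target of the deletion. Dnmt1 levels were also lower in cells resembling the lining of the lung surface, without passing the threshold used below. The labels give neither the time of induction nor whether each library came from 1 embryo, so p-values measure the spread between libraries, which may be technical.

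Entry into mitosis is driven by Cdk1 bound to A-type and B-type cyclins. Spindle fibres then attach to chromosomes at kinetochores, a checkpoint holds anaphase back until every attachment is made, and the anaphase-promoting complex, switched on by Cdc20, destroys cyclin B and lets the cell divide. Most of these genes are silent in resting cells and are transcribed together late in the cycle, after the S phase genes that copy the DNA. A short promoter element, the cell cycle genes homology region (CHR), and neighbouring CCAAT boxes are known for this late timing, whereas E2F sites are known for the earlier S phase timing.

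Promoters are shown for 3 members whose values are described in detail, Cdc20, Cdk1 and Top2a, and for the S phase gene Mcm3. Each is the 120 bases before the RefSeq start in build GRCm38.p6, written 5′ to 3′ on the gene's strand, and all 4 genes lie on the minus strand. Capitals mark CHR letters (TTTGAA or TTCGAA) or CCAAT read on either strand. The windows are chr4:118437344-118437463 for Cdc20, chr10:69352913-69353032 for Cdk1, chr11:99024190-99024309 for Top2a and chr1:20820313-20820432 for Mcm3.
Cdc20: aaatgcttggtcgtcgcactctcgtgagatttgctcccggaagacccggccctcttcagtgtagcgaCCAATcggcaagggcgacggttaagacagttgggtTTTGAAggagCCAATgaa
Cdk1: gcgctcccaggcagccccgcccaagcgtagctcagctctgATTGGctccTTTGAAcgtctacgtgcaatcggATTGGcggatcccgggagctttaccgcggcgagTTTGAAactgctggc
Top2a: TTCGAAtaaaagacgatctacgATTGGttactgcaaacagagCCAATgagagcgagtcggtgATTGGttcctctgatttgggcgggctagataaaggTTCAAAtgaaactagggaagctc
Mcm3: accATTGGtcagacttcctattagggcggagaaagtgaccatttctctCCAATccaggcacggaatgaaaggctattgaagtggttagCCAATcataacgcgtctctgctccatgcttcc

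RefSeq promoters (250 bases before to 50 after the start) were found for 32 of the 36 members and for 30 of the 40 S phase genes used for comparison. Counts are of genes, and a gene counted where any of its promoters held the letters. CHR letters on either strand were present for 26 of 32 mitosis genes (81.2%), 5 of 30 S phase genes (16.7%) and 21.7% of all 27025 genes with a promoter. CCAAT was present for 75.0% of the mitosis genes, 66.7% of the S phase genes and 41.1% of all. An E2F site, searched as TTTGGCGC, TTTCCCGC, TTTGCCGC or TTTCGCGC on either strand, was present for 1 of 32 mitosis genes (3.12%), 13 of 30 S phase genes (43.3%) and 2.6% of all. These letter matches are descriptions, not measured binding sites. The 36 genes lie on 15 chromosomes, so they are not 1 linked block. In GENCODE vM21 on GRCm38, Cdc20 spans chr4:118432901-118437352 and Cdk1 spans chr10:69335146-69352938.

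The 4 libraries held 7013 and 7820 barcodes for Dnmt1 CKO and 6698 and 6284 for wild type, with 48213065 to 56760219 UMIs each. After filters on genes, mitochondrial UMIs and doublets, 4305 and 5677 Dnmt1 CKO cells and 5115 and 4914 wild-type cells were kept, with median depths of 5902 to 7668 UMIs. Any 2 libraries shared 0.127% to 0.255% of their barcodes. Cells were clustered without the cell cycle genes and clusters were named "-like" from marker genes. Dnmt1 in all mesenchymal-like cells was 9.19 and 12.8 CPM (UMIs of the gene per 1000000 UMIs summed over the cells of the class) in Dnmt1 CKO, against 27.6 and 26.1 CPM in wild type. That is a log2 change of -1.30 (adjusted p = 0.00755, edgeR's quasi-likelihood test with Benjamini-Hochberg adjustment over all genes), in the direction of the labels.

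The mesenchymal-like class held 2565 and 2792 Dnmt1 CKO cells and 2799 and 2554 wild-type cells, but different clusters filled it. A matrix fibroblast-like cluster led by Mfap4 held 5 and 80 Dnmt1 CKO cells, against 1072 and 1087 wild-type cells. A cluster led by Mgp, with the germline gene Dazl next, held 1076 and 1105 Dnmt1 CKO cells, against 0 and 1 wild-type cells. A difference between kinds of mesenchymal cell and one between like cells therefore cannot be told apart within the class.

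More mesenchymal-like cells carried transcripts of several mitosis genes in the mutant lungs. Cells with a UMI in at least 3 of 6 gate genes (Top2a, Mki67, Cenpf, Birc5, Ube2c and Hmmr) are termed gated. They made up 8.89% (95% exact interval 7.82% to 10.1%) and 5.66% (4.83% to 6.58%) of mesenchymal-like cells in Dnmt1 CKO, against 3.68% (3.01% to 4.45%) and 1.61% (1.15% to 2.17%) in wild type. Intervals cover counting error only. Both Dnmt1 CKO values lay above both wild-type values, and the intervals did not meet.

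The gap was also present at equal depth. With each cell thinned to 3000 UMIs and shallower cells left out, the gated share was 6.81% and 4.86% in Dnmt1 CKO and 2.80% and 1.37% in wild type. The means were 5.83% ± 1.38 in Dnmt1 CKO and 2.08% ± 1.01 in wild type (SD, n = 2 each), a ratio of 2.8. An exact permutation test of 2 libraries against 2 cannot go under 0.333, so none is reported. In alveolar type 1-like (AT1-like) cells, which have largely left the cycle, the share at 3000 UMIs was 0 and 0 in Dnmt1 CKO (upper limits 2.64% and 1.25%), against 0.289% and 0 in wild type (upper limit 1.23% for the library at 0). The mesenchymal-like shares lay above this background in all 4 libraries.

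Most mesenchymal-like cells had no gate gene, but in every library more cells stood just outside the gate than just inside it. Just inside it, 41 and 31 Dnmt1 CKO mesenchymal-like cells and 15 and 5 wild-type ones had exactly 3 gate genes. Just outside it, 88 and 75 Dnmt1 CKO cells and 28 and 27 wild-type cells had exactly 2. All 6 gate genes were seen in 120 and 83 Dnmt1 CKO cells and in 57 and 27 wild-type cells.

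Gated shares of endothelial-like, immune-like and epithelial-like cells overlapped between the groups. Endothelial-like cells were gated in 27.7% and 17.8% of Dnmt1 CKO cells and in 19.5% and 16.0% of wild-type cells. Immune-like cells gave 18.8% and 9.13% in Dnmt1 CKO and 12.6% and 14.1% in wild type. The 2 Dnmt1 CKO libraries stood on either side of wild type there. Epithelial-like cells gave 4.38% and 2.81% in Dnmt1 CKO and 3.34% and 2.43% in wild type, and at 3000 UMIs the range over the 4 libraries was 0.656% to 1.43%. Mesothelial-like cells, the lining of the lung surface, gave 20% and 32.4% in Dnmt1 CKO and 13.9% and 13.3% in wild type, so the groups did not overlap there, but each library held only 30 to 68 such cells and the groups overlapped after thinning.

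**Figure D1:**
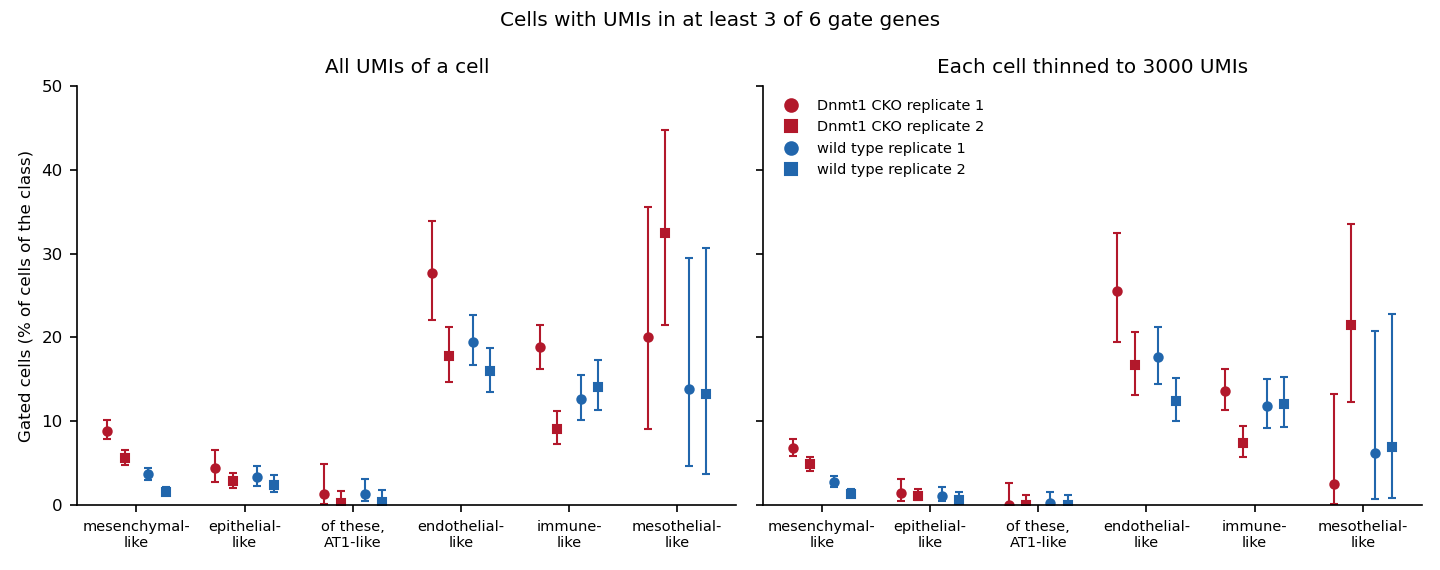
Share of cells (%, vertical axis) with UMIs in at least 3 of the 6 gate genes, per class and library, from all UMIs of a cell (left) and with each cell thinned to 3000 UMIs (right), where bars are 95% exact binomial intervals. In mesenchymal-like cells the Dnmt1 CKO points (8.89% and 5.66%) stand above the wild-type points (3.68% and 1.61%), and the AT1-like points stay near 0.

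Summed over all mesenchymal-like cells, every mitosis gene was higher in both Dnmt1 CKO libraries than in both wild-type libraries (36 of 36). The share of all genes that did so is not given here, so this count is a description. Of the 36, 23 rose past an adjusted p of 0.05 and 0 fell, against a background of 6.97% of all genes tested that rose. The median log2 change of the members was 1.09, with a range of 0.38 to 2.24, beside a median of 0.0 over all genes tested. DESeq2 called 30. The number called depended on single libraries and on a sex term: leaving out wild type replicate 2 gave 5, leaving out Dnmt1 CKO replicate 1 gave 12, leaving out wild type replicate 1 gave 36, and adding the sex of the library to the model gave 9. That term set Dnmt1 CKO replicate 1 and wild type replicate 2, which had Y-linked transcripts, against the other two, and it is uncertain for Dnmt1 CKO replicate 1, which had both Y-linked transcripts (193 CPM) and Xist (952 CPM). Cdc20, Ccnb1 and Top2a were among the 5 called without wild type replicate 2.

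Among the cyclins and their kinase, Ccnb1, which carries Cdk1 into mitosis, had 27.7 and 23.9 CPM in Dnmt1 CKO, against 11.2 and 7.18 CPM in wild type. It rose by 1.45 on the log2 scale (SE 0.263, adjusted p = 0.00928, edgeR). The second B-type cyclin, Ccnb2, had 35.8 and 32.3 CPM in Dnmt1 CKO and 19.3 and 10.3 CPM in wild type, a rise of 1.17 (adjusted p = 0.0349, edgeR). Ccna2, the A-type cyclin of S and G2, had 28.7 and 21.0 CPM in Dnmt1 CKO and 14.3 and 8.92 CPM in wild type, a rise of 1.07 (adjusted p = 0.0401, edgeR). The groups did not overlap for any of these 3 cyclins. Their partner kinase stood apart: Cdk1 had 58.8 and 53.2 CPM in Dnmt1 CKO and 50.6 and 33.7 CPM in wild type. Its log2 change of 0.38 was the smallest of the 36 and was not called (adjusted p = 0.338, edgeR).

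The regulators of mitotic exit held the largest change. Cdc20, the activator of the anaphase-promoting complex, had 53.2 and 43.7 CPM in Dnmt1 CKO, against 13.8 and 5.99 CPM in wild type. It rose by 2.24 on the log2 scale (SE 0.360, adjusted p = 0.00567, edgeR), and the lower Dnmt1 CKO library stood well above the higher wild-type library. Without wild type replicate 2, the lowest library, the change was 1.74 (adjusted p = 0.00236, edgeR). Ube2c, the ubiquitin-conjugating enzyme of the same complex and a gate gene, had 71.6 and 75.4 CPM in Dnmt1 CKO and 46.5 and 30.2 CPM in wild type, a rise of 0.91. Cdca3, which directs the destruction of the mitotic inhibitor Wee1, rose by 1.42 (adjusted p = 0.0287, edgeR).

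Of the mitotic kinases and checkpoint genes, Ttk (Mps1), which starts the spindle checkpoint, rose by 1.24 and Bub1b (BubR1), which holds Cdc20 inactive, rose by 1.31, both in edgeR's quasi-likelihood test. Aurka, a kinase of the spindle poles, had 14 and 9.52 CPM in Dnmt1 CKO and 6.40 and 3.57 CPM in wild type, and narrowly missed the threshold (log2 1.20, adjusted p = 0.0522, edgeR). Plk1, the polo-like kinase needed from entry to exit, had 10.9 and 6.41 CPM in Dnmt1 CKO and 5.00 and 2.58 CPM in wild type (log2 1.15, adjusted p = 0.0895, edgeR). The groups did not overlap for either kinase, but the spread within groups was wide. Bub1, the kinase that marks the inner centromere, had a log2 change of 0.86 and was not called (adjusted p = 0.0739, edgeR).

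The chromosomal passenger complex, which corrects wrong attachments of chromosomes to the spindle, has 3 members on the list, and all 3 rose. Its kinase Aurkb had 20.4 and 12.6 CPM in Dnmt1 CKO and 7.33 and 4.81 CPM in wild type, a rise of 1.41 (SE 0.316, adjusted p = 0.0224, edgeR). Birc5 (survivin), a gate gene, had 61.6 and 43.4 CPM in Dnmt1 CKO and 28.8 and 14.4 CPM in wild type, a rise of 1.24 (adjusted p = 0.0426, edgeR). Cdca8 (borealin) rose by 1.32 (adjusted p = 0.0178, edgeR). Of the centromere and kinetochore genes, 1 of 5 was called, Ndc80 of the microtubule-binding complex (1.16, adjusted p = 0.0322, edgeR). Its partner Nuf2 had a log2 change of 0.96, the centromeric histone Cenpa 0.79 and the kinetochore motor Cenpe 0.78, none of them called. Cenpf, a kinetochore gene of G2 and a gate gene, had 87.0 and 57.3 CPM in Dnmt1 CKO and 44.0 and 31.9 CPM in wild type (log2 0.90, adjusted p = 0.0548, edgeR).

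Among the 5 mitotic kinesins, 3 rose: Kif11 (Eg5), which pushes the spindle poles apart, by 0.86, Kif20a of the central spindle by 1.27 and Kif20b by 0.92. Kif23, which bundles the midzone, and Kif2c, which removes faulty attachments, had log2 changes of 0.87 and 1.03 and were not called. Of the 6 spindle genes, 4 rose: Nusap1, which bundles spindle microtubules, by 1.25, Ckap2l by 1.19, Tpx2, the activator of Aurka, by 1.12 and Prc1, the bundler of the midzone, by 0.85. Tacc3 (1.00) and the gate gene Hmmr were not called, and Hmmr had 33.8 and 25.0 CPM in Dnmt1 CKO and 18.9 and 11.8 CPM in wild type (log2 0.91, adjusted p = 0.0634, edgeR). Of the 3 cytokinesis genes, Ect2, which activates RhoA at the cleavage furrow, rose by 1.15 and its partner Racgap1 by 0.96, while the scaffold Anln had a log2 change of 0.74 and was not called.

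Both chromatin genes rose. Top2a, the topoisomerase that untangles sister chromatids, had 138 and 92.5 CPM in Dnmt1 CKO, against 55.3 and 44.6 CPM in wild type (log2 1.18, adjusted p = 0.0149, edgeR). Mki67, which coats mitotic chromosomes, had 92.0 and 59.4 CPM in Dnmt1 CKO and 43.9 and 38.3 CPM in wild type (log2 0.86, adjusted p = 0.0481, edgeR). Neither pair of groups overlapped.

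**Figure D2:**
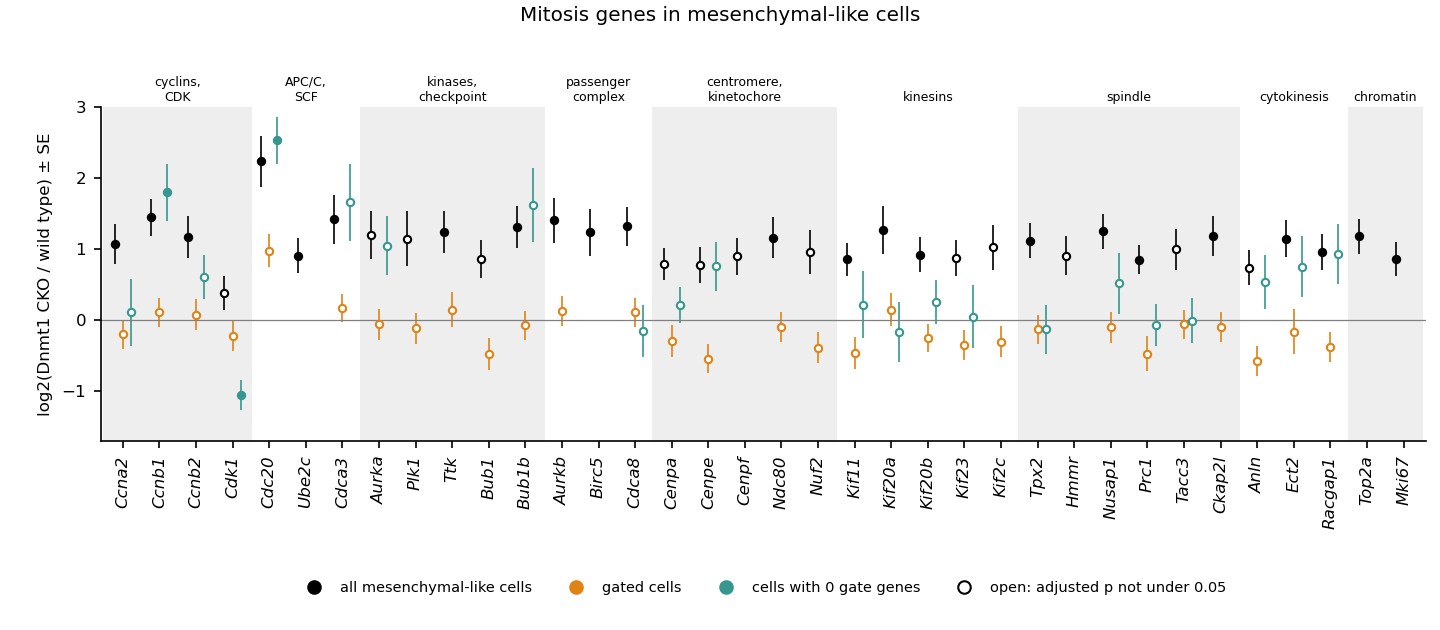
Log2 change (Dnmt1 CKO over wild type, vertical axis, bars SE from edgeR) of the 36 mitosis genes grouped by role, in all mesenchymal-like cells (black), in gated cells (orange) and in cells with 0 gate genes (green, only members that passed the filter on low counts), orange and green without the 6 gate genes, with open symbols for an adjusted p not under 0.05. The black points lie between 0.38 and 2.24, the orange points between -0.57 and 0.98 with 22 of 30 below 0, and the called green points are Cdc20 at 2.53, Ccnb1 at 1.80 and Cdk1 at -1.05.

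The S phase genes, which copy the DNA before mitosis, were read in the same cells. Of 40 S phase genes, 9 rose and 0 fell, against 6.97% of all genes tested that rose. Their median log2 change was 0.68, with 39 of 40 above 0. The share of all genes above 0 is not given here, so that count is a description. Leaving out 1 library gave 2 (wild type replicate 2), 4 (Dnmt1 CKO replicate 1), 15 (wild type replicate 1) or 21 (Dnmt1 CKO replicate 2). The 9 were Hells (1.72), Mcm5 (1.51), Orc1 (1.42), Mcm3 (1.31), Chaf1a (1.18), Tyms (1.16), Mcm6 (1.14), Rfc2 (0.91) and Tipin (0.87). Hells, a chromatin remodeller tied to DNA methylation, had 58.1 and 31.8 CPM in Dnmt1 CKO and 14.2 and 12.6 CPM in wild type. Mcm3, a subunit of the replicative helicase, had 40.4 and 28.4 CPM in Dnmt1 CKO and 15.5 and 11.7 CPM in wild type (log2 1.31, adjusted p = 0.0105, edgeR). Pcna, the sliding clamp of the polymerases, had 98.1 and 77.2 CPM in Dnmt1 CKO and 67.6 and 52.3 CPM in wild type, and was not called (log2 0.52, adjusted p = 0.16, edgeR). The difference between the mitosis and S phase lists was not tested.

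Taken as sums, the 36 mitosis genes made up 1324 and 1001 CPM in Dnmt1 CKO mesenchymal-like cells, against 659 and 461 CPM in wild type. The 40 S phase genes made up 1165 and 849 CPM in Dnmt1 CKO and 654 and 596 CPM in wild type. The log2 ratio of the mitosis sum to the S phase sum was 0.18 and 0.24 in Dnmt1 CKO, against 0.01 and -0.37 in wild type, a mean difference of 0.39 with a pooled SD of 0.19. The groups did not overlap, but wild type replicate 2 set most of the distance. Both lists were written with earlier results of these data known, so the counts are descriptions.

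Because the gate genes chose the gated cells, sums inside and outside the gate were read over the 30 members that are not gate genes. Gated cells held 90.3% and 86.9% of the UMIs of these 30 genes in Dnmt1 CKO mesenchymal-like cells and 83.9% and 78.0% in wild type. They held 39.0% and 29.5% of the S phase UMIs in Dnmt1 CKO and 28.8% and 17.2% in wild type. Over all mesenchymal-like cells the 30 genes summed to 840 and 648 CPM in Dnmt1 CKO and 422 and 290 CPM in wild type. Within gated cells they summed to 5591 and 6056 CPM in Dnmt1 CKO and 6029 and 7327 CPM in wild type, and the S phase sum was 3347 and 2696 CPM in Dnmt1 CKO and 3205 and 3323 CPM in wild type. The log2 ratio of these sums was 0.74 and 1.17 in Dnmt1 CKO and 0.91 and 1.14 in wild type, so the groups overlapped. In ungated cells the 30 genes summed to 94.1 and 93.7 CPM in Dnmt1 CKO and 72.0 and 65.7 CPM in wild type, and the S phase sum was 822 and 660 CPM in Dnmt1 CKO and 495 and 509 CPM in wild type.

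**Figure D3:**
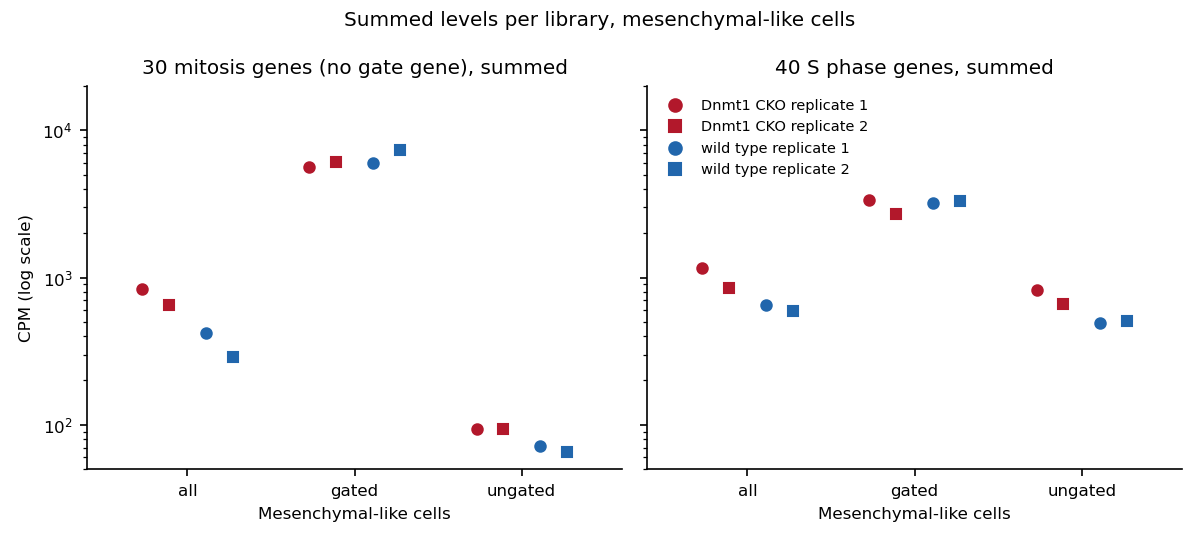
Summed level (CPM, log axis) of the 30 mitosis genes that are not gate genes (left) and the 40 S phase genes (right) in all, gated and ungated mesenchymal-like cells, 1 point per library. Dnmt1 CKO lies above wild type over all cells (840 and 648 against 422 and 290 for the mitosis genes), and within gated cells the groups overlap (5591 and 6056 against 6029 and 7327).

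Within gated mesenchymal-like cells (228 and 158 in Dnmt1 CKO, 103 and 41 in wild type) the 30 members that are not gate genes were tested. None was called by edgeR's quasi-likelihood test, against 2.29% of all genes tested, 1 was higher and 2 lower at an unadjusted p under 0.05, and DESeq2 called 1, Cdc20. Leaving out wild type replicate 1 also gave 1 call by edgeR. Their median log2 change was -0.12, and the groups overlapped for 15 members, with Dnmt1 CKO above wild type for 2 and below it for 13. The share of all genes without overlap in gated cells is not given here, so these counts are descriptions. The S phase genes gave 0 called of 39 tested and a median of -0.17. Mcm3 had 83.3 and 73.3 CPM in Dnmt1 CKO and 73.4 and 41.7 CPM in wild type, and Pcna had 257 and 210 CPM in Dnmt1 CKO and 257 and 223 CPM in wild type. The 6 gate genes chose these cells, so their levels are only described. For example, Top2a had 979 and 931 CPM in Dnmt1 CKO and 863 and 1291 CPM in wild type, and Mki67 had 582 and 491 CPM in Dnmt1 CKO and 632 and 997 CPM in wild type.

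The other 4 gate genes are given likewise. Cenpf had 597 and 549 CPM in Dnmt1 CKO and 706 and 954 CPM in wild type. Birc5 had 419 and 416 CPM in Dnmt1 CKO and 455 and 417 CPM in wild type. Ube2c had 466 and 723 CPM in Dnmt1 CKO and 712 and 867 CPM in wild type, and Hmmr had 245 and 262 CPM in Dnmt1 CKO and 314 and 364 CPM in wild type. For Cenpf, Ube2c and Hmmr, wild type replicate 2 was the highest library, and it was also the deepest, with a median of 15609 UMIs per gated cell, against 9336 in wild type replicate 1 and 11319.5 and 9718.5 in the Dnmt1 CKO libraries.

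Cdc20 had the highest log2 change within the gate. It had 335 and 381 CPM in gated Dnmt1 CKO cells, against 210 and 154 CPM in gated wild-type cells, without overlap. Its log2 change was 0.98 (SE 0.232) and just missed the threshold (adjusted p = 0.0643, edgeR), while DESeq2 gave an adjusted p of 0.0231. For the B-type cyclins that Cdc20 helps to destroy the groups overlapped: Ccnb1 had 184 and 224 CPM in Dnmt1 CKO and 179 and 207 CPM in wild type, and Ccnb2 had 217 and 288 CPM in Dnmt1 CKO and 242 and 247 CPM in wild type. Ccna2 had 201 and 215 CPM in Dnmt1 CKO and 227 and 265 CPM in wild type. Cdk1 had 363 and 458 CPM in Dnmt1 CKO and 499 and 478 CPM in wild type, Dnmt1 CKO being lower in both libraries.

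For the kinases Aurka, Aurkb and Plk1 the groups overlapped within the gate. Aurka had 83.3 and 84.1 CPM in Dnmt1 CKO and 95.2 and 81.9 CPM in wild type, and Aurkb had 145 and 128 CPM in Dnmt1 CKO and 116 and 141 CPM in wild type. Plk1 had 77.3 and 62.0 CPM in Dnmt1 CKO and 77.3 and 77.1 CPM in wild type. Bub1 had 79.2 and 91.1 CPM in Dnmt1 CKO and 103 and 143 CPM in wild type, without overlap, and was not called (log2 -0.48, adjusted p = 0.345, edgeR). Anln, the cytokinesis scaffold, had the lowest log2 change, -0.57, with 152 and 147 CPM in Dnmt1 CKO and 195 and 266 CPM in wild type, and was not called (adjusted p = 0.228, edgeR).

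The largest part of the gated cells came from a cluster led by Top2a, which held 78.5% and 69.0% of them in Dnmt1 CKO and 67.0% and 46.3% in wild type. A cluster led by Ndufa4l2, a nuclear gene for a mitochondrial protein, held 6.58% and 12.7% in Dnmt1 CKO and 18.4% and 43.9% in wild type, and the Mgp-led cluster held 6.58% and 12% in Dnmt1 CKO and 0 and 2.44% in wild type. Without the Ndufa4l2-led cluster, a choice made after seeing the data, 0 members were again called in gated cells and 17 in all mesenchymal-like cells. Dnmt1 itself was 21.8 and 36.7 CPM in gated Dnmt1 CKO cells, against 113 and 122 CPM in gated wild-type cells (log2 -1.96, adjusted p = 0.005, edgeR). Erythroid markers summed to 10822.7 and 2728.4 CPM in gated Dnmt1 CKO cells and 1848.4 and 4164.1 CPM in gated wild-type cells, and cardiomyocyte markers to 33.7 and 16.4 CPM in Dnmt1 CKO and 612.8 and 22.5 CPM in wild type. Endothelial markers (8 genes) summed to at most 86.7 CPM and immune markers (8 genes) to at most 48.2 CPM in any of the 4, beside 8146.8 to 10998 CPM for mesenchymal markers, and the part of these other markers in the result was not tested.

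Outside the gate, Cdc20 and Ccnb1 rose and Cdk1 fell. Mesenchymal-like cells with 0 gate genes, a set added after seeing the data, numbered 1812 and 2165 in Dnmt1 CKO and 2429 and 2237 in wild type. Of the 30 members that are not gate genes, 22 passed the filter on low counts and 3 of these were called, a share near the 11.9% of all genes called in either direction. Their median log2 change was 0.39. Cdca3 (1.66, adjusted p = 0.082) and Bub1b (1.62, adjusted p = 0.0794) had wide errors and were not called by edgeR. Cdc20 had 6.37 and 8.32 CPM (83 and 104 UMIs) in Dnmt1 CKO, against 1.32 and 0.991 CPM (19 and 17 UMIs) in wild type, a rise of 2.53 (SE 0.337, adjusted p = 0.00191, edgeR). It was seen in 4.14% and 4.06% of these cells in Dnmt1 CKO and in 0.700% and 0.760% in wild type. Ccnb1 had 2.92 and 2.80 CPM in Dnmt1 CKO and 0.485 and 0.933 CPM in wild type, a rise of 1.80 (adjusted p = 0.0209, edgeR), resting on 38 and 35 UMIs in Dnmt1 CKO and 7 and 16 UMIs in wild type.

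Cdk1 went the other way in these cells. It had 9.44 and 9.84 CPM in Dnmt1 CKO, against 21.3 and 18.7 CPM in wild type, and fell by 1.05 on the log2 scale (SE 0.213, adjusted p = 0.0134, edgeR). Each of these groups was tight and they did not overlap. DESeq2 called the same 3 genes, and leaving out each library in turn kept Cdc20 and Cdk1, while Ccnb1 was not called without wild type replicate 1. S phase genes also rose there, 8 of 38 tested with a median of 0.55, beside the 11.9% of all genes called in either direction. Among them was Mcm3, with 32.2 and 21.8 CPM in Dnmt1 CKO and 11.8 and 9.15 CPM in wild type (log2 1.34, adjusted p = 0.0100, edgeR).

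**Figure D4:**
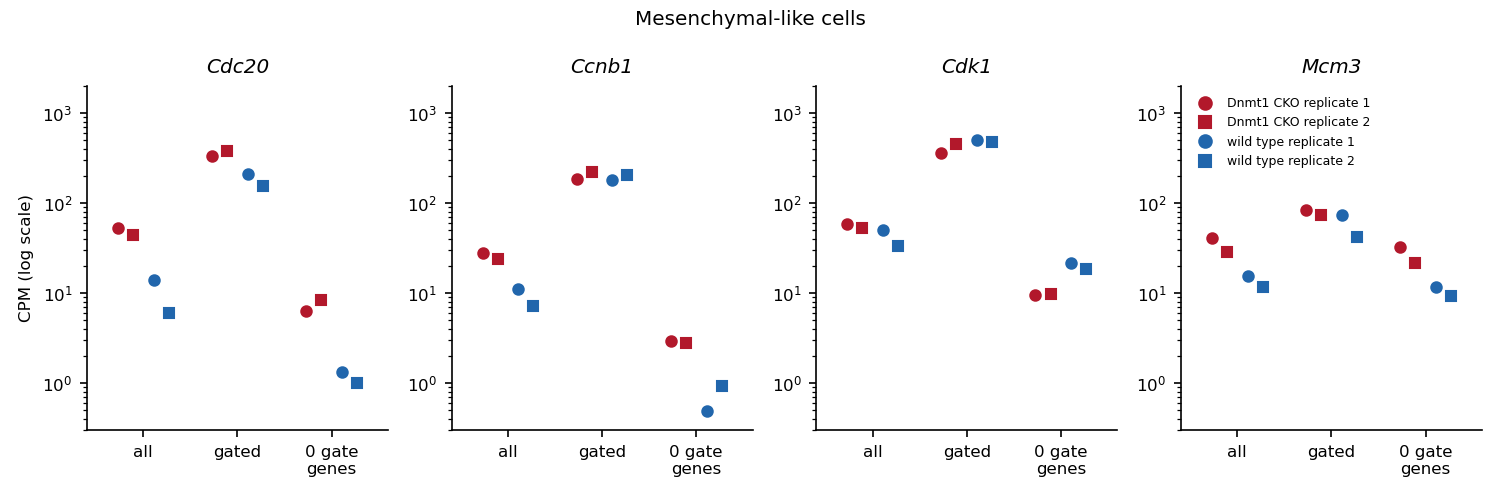
Level (CPM, log axis) of Cdc20, Ccnb1, Cdk1 and the S phase gene Mcm3 in all, gated and 0-gate-gene mesenchymal-like cells, 1 point per library. Cdc20 is higher in Dnmt1 CKO in each of the 3 sets of cells, whereas Cdk1 in cells with 0 gate genes is lower (9.44 and 9.84 against 21.3 and 18.7).

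Since different clusters filled the class, these levels were also read within subclasses. In matrix fibroblast-like cells with 0 gate genes (121 and 424 in Dnmt1 CKO, 1733 and 1573 in wild type), Cdk1 was 14.9 and 21.7 CPM in Dnmt1 CKO and 22.3 and 20.4 CPM in wild type, so the groups overlapped. Cdc20 there was 2.48 and 2.87 CPM in Dnmt1 CKO, from 2 and 7 UMIs, and 1.22 and 0.975 CPM in wild type, from 13 and 12 UMIs. Dazl, which marks the mutant state, was 50.9 and 9.44 CPM in these Dnmt1 CKO cells, compared with 565 and 772 CPM in the Dnmt1 CKO cells of the unnamed clusters. Those unnamed clusters held most of the mutant cells (1321 and 1235) and few wild-type cells (72 and 67). They are not a subclass but several clusters, among them the Mgp-led, Top2a-led and Ndufa4l2-led ones. The Mgp-led cluster held almost no wild-type cells, so values there do not compare like cells. In the unnamed clusters, Cdk1 was 9.64 and 6.35 CPM in Dnmt1 CKO and 17.3 and 18.7 CPM in wild type. Cdc20 was 7.44 and 11.3 CPM in Dnmt1 CKO and 4.31 and 0 CPM in wild type, the wild-type values from 2 and 0 UMIs. In adventitial fibroblast-like cells, a subclass found in both genotypes (100 and 144 cells in Dnmt1 CKO, 104 and 141 in wild type), Cdk1 was 3.57 and 6.58 CPM in Dnmt1 CKO and 17.4 and 8.90 CPM in wild type, from 3 to 12 UMIs a library. Cdc20 there was 4.76 and 5.49 CPM in Dnmt1 CKO and 0 and 0.809 CPM in wild type, from at most 5 UMIs a library. Ccnb1 there was 1.19 and 4.39 CPM in Dnmt1 CKO and 0 and 0.809 CPM in wild type, from at most 4. In myofibroblast-like cells the groups overlapped for Ccnb1, with 0 and 2.2 CPM in Dnmt1 CKO and 0 and 1.74 CPM in wild type. They did not overlap there for Cdk1 (5.63 and 6.6 CPM in Dnmt1 CKO, 18.8 and 15.1 CPM in wild type) or Cdc20 (5.63 and 2.2 against 1.34 and 1.74 CPM). These Dnmt1 CKO values rested on at most 3 UMIs a library. In pericyte-like cells Cdk1 overlapped (11.7 and 17.9 against 19.0 and 17.8 CPM) and Cdc20 did not (5.86 and 10.2 against 1.9 and 0.938 CPM, from at most 4 UMIs). Mcm3 was 26.1 and 13.5 CPM in Dnmt1 CKO matrix fibroblast-like cells and 11.1 and 8.37 CPM in wild-type ones, without overlap. It did not overlap in the unnamed clusters either. In adventitial fibroblast-like cells it overlapped, with 21.4 and 15.4 CPM in Dnmt1 CKO and 17.4 and 8.09 CPM in wild type, as it did in myofibroblast-like and pericyte-like cells. Altered expression and altered kinds of cell cannot be told apart for Cdc20, Ccnb1, Cdk1 and Mcm3 at this depth.

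In the other classes no mitosis gene was called. Over all endothelial-like cells, 0 of 36 were called (0.0396% of all genes), the median was 0.08, and the range ran from Bub1b at -0.26 (30.2 and 20.7 CPM in Dnmt1 CKO, 35.2 and 26.4 CPM in wild type) to Cdca8 at 0.26 (97.0 and 61.6 CPM in Dnmt1 CKO, 86.0 and 47.4 CPM in wild type). Cdc20 had 65.9 and 52.5 CPM in Dnmt1 CKO and 70.7 and 45.2 CPM in wild type endothelial-like cells, which overlapped. Over all epithelial-like cells, 0 of 36 were called (0.0% of all genes), with a median of 0.16 between Bub1 at -0.83 (1.34 and 2.09 CPM in Dnmt1 CKO, 2.83 and 3.57 CPM in wild type) and Kif2c at 0.61 (1.57 and 1.49 CPM in Dnmt1 CKO, 0.918 and 0.953 CPM in wild type). Over all immune-like cells, 0 of 36 were called (0.0161% of all genes), with a median of -0.21 between Hmmr at -0.72 (32.7 and 17.4 CPM in Dnmt1 CKO, 37.2 and 48.0 CPM in wild type) and Cdk1 at 0.17 (61.3 and 48.9 CPM in Dnmt1 CKO, 54.0 and 47.6 CPM in wild type). In mesothelial-like cells, 0 of 33 tested members were called (0.595% of all genes), with a median of 0.03 between Cenpe at -0.78 (24.9 and 46.1 CPM in Dnmt1 CKO, 56.9 and 65.8 CPM in wild type) and Aurkb at 0.77 (17.8 and 33.3 CPM in Dnmt1 CKO, 13.3 and 14.2 CPM in wild type). At an unadjusted p under 0.05 there were 0, 0, 1 and 1 members in these 4 classes, and DESeq2 called 0 in each. Leaving out Dnmt1 CKO replicate 2 gave 2 lower members in mesothelial-like cells.

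Dnmt1 itself in mesothelial-like cells was 9.50 and 17.9 CPM in Dnmt1 CKO, against 51.2 and 47.7 CPM in wild type, without overlap, and was not called (log2 -1.69, adjusted p = 0.0791, edgeR). Dazl was called higher in mesothelial-like cells (log2 5.43, adjusted p = 0.0127, edgeR). In epithelial-like cells Dazl had a log2 change of 5.26 and was not called by edgeR (adjusted p = 0.649), but DESeq2 gave an adjusted p of 0.0041. Dazl was also not called by edgeR in gated endothelial-like cells (log2 3.71, adjusted p = 0.157) or in immune-like cells with 0 gate genes (log2 4.25, adjusted p = 0.208). DESeq2 gave adjusted p of 0.0285 and 0.00583 there, so higher Dazl was not particular to mesothelial-like cells. Mesenchymal markers (10 genes) summed to 8419.1 and 7028.2 CPM in Dnmt1 CKO mesothelial-like cells and 14078.9 and 16066.5 CPM in wild-type ones. Mesothelial markers (8 genes) summed to 7363.6 and 7298.3 CPM in Dnmt1 CKO and 9085.0 and 10897.1 CPM in wild type. The part of mesenchymal transcripts in these values, and whether the deletion reached mesothelial-like cells, were not tested. For Dnmt1, endothelial-like cells had 68.3 and 63.4 CPM in Dnmt1 CKO and 72.9 and 67.1 CPM in wild type. In the endothelial-like class the log2 ratio of the mitosis sum to the S phase sum was 0.80 and 0.81 in Dnmt1 CKO, against 1.15 and 1.09 in wild type, a difference of -0.32 that became -0.13 with cells thinned to 3000 UMIs. It was not tested against that of the mesenchymal-like class. Of 39 S phase genes tested there, 38 had a log2 change above 0 (median 0.45), a count given without the share of all genes above 0. Of these S phase genes 0 were called (0.0396% of all genes) and 4 passed an unadjusted p under 0.05. Mcm3 had 81.8 and 57.9 CPM in Dnmt1 CKO and 49.9 and 27.3 CPM in wild type endothelial-like cells (log2 0.87, adjusted p = 0.999, edgeR).

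**Figure D5:**
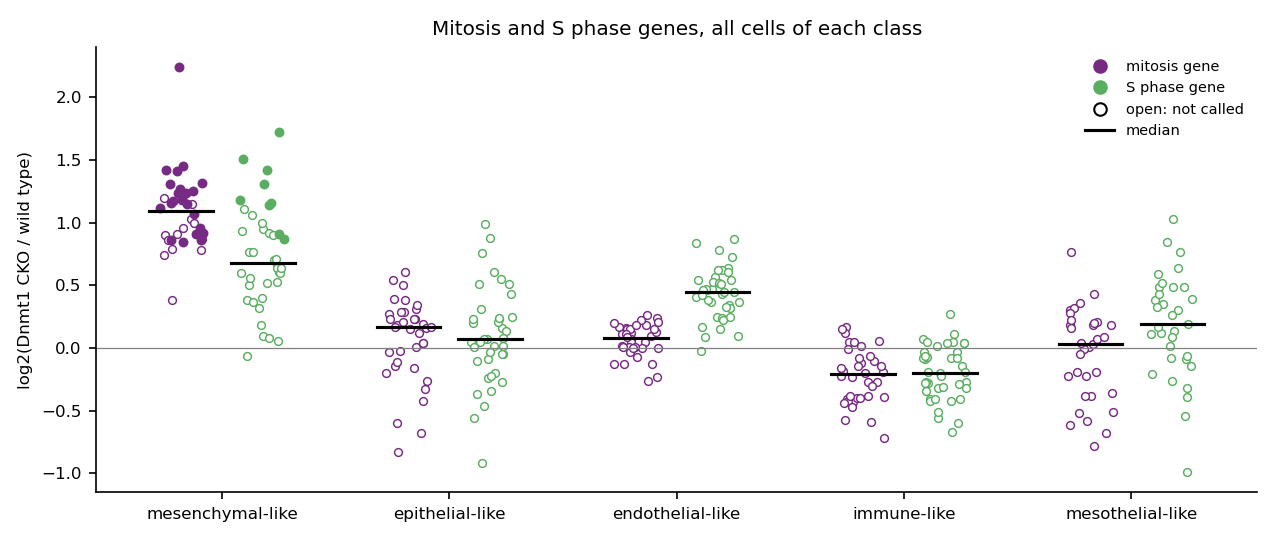
Log2 change (Dnmt1 CKO over wild type, vertical axis) of each mitosis gene (purple) and S phase gene (green) over all cells of each class, filled where called and with a line at the median. The mitosis medians are 1.09, 0.16, 0.08, -0.21 and 0.03 from left to right, and called genes appear in the mesenchymal-like class alone.

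Nor was any of the 30 members that are not gate genes called in gated cells of the other classes. In gated endothelial-like cells 0 members were called (0.0% of all genes) and the median log2 change was 0.0, from Bub1b at -0.36 (51.2 and 48.3 CPM in Dnmt1 CKO, 66.7 and 63.9 CPM in wild type) to Cdca8 and Ndc80 at 0.20. Ndc80 had 50.6 and 51.9 CPM in Dnmt1 CKO and 46.8 and 44.2 CPM in wild type, and Cdca8 had 166 and 145 CPM in Dnmt1 CKO and 164 and 111 CPM in wild type. In gated immune-like cells 0 were called (0.0% of all genes), 1 passed an unadjusted p under 0.05, and the median was -0.07, from Nusap1 at -0.46 (176 and 153 CPM in Dnmt1 CKO, 220 and 251 CPM in wild type) to Cdk1 at 0.26 (178 and 238 CPM in Dnmt1 CKO, 197 and 163 CPM in wild type). In gated epithelial-like cells 0 of 29 tested were called (0.0% of all genes), with a median of 0.15, from Bub1 at -0.29 (9.86 and 12.4 CPM in Dnmt1 CKO, 13.5 and 14.4 CPM in wild type) to Ccnb1 at 0.71 (27.6 and 46.9 CPM in Dnmt1 CKO, 22.1 and 22.5 CPM in wild type). These gated epithelial-like cells numbered 22 to 37 a library and had median depths of 39727 to 67159 UMIs, against 7347 to 9031.5 for the class, and the part of depth or of joined cells in them was not tested. Cells with 0 gate genes gave 0 called members of the 14, 5 and 8 that passed the filter on low counts in epithelial-like (0.0% of all genes), endothelial-like (0.271%) and immune-like (0.0%) cells, by edgeR and by DESeq2, although leaving out Dnmt1 CKO replicate 2 gave 1 in epithelial-like cells.

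The difference between classes was tested directly, with the library as a block. The log2 change in mesenchymal-like cells exceeded that in endothelial-like cells for 30 of 36 members (3.0% of all genes), led by Cdc20 with a difference of 2.22 (SE 0.193, adjusted p = 4.88e-05, edgeR) and with Cdk1 lowest at 0.19. Of the S phase genes, 2 of 40 did so. Against immune-like cells it exceeded for 11 members (0.986% of all genes), again led by Cdc20 at 2.79 (adjusted p = 0.0061, edgeR) and with Cdk1 lowest at 0.21. Against epithelial-like cells it exceeded for 3 members (1.67% of all genes): Mki67 by 1.07, Ube2c by 1.47 and Aurkb by 1.56. Of the S phase genes, 3 of 40 exceeded in the comparison with immune-like cells (Mcm5, Mcm6 and Hells) and 2 of 40 in that with epithelial-like cells (Tyms and Hells). Against epithelial-like cells Cdc20, with a difference of 1.95, was not called (adjusted p = 0.0679, edgeR) and Cdk1 was lowest at 0.08. No member was lower in any of the 3. These counts depended on single libraries: without wild type replicate 2 they were 14 (endothelial-like), 0 (immune-like) and 0 (epithelial-like). Against endothelial-like cells, leaving out wild type replicate 1 also gave 14. Against immune-like cells, leaving out Dnmt1 CKO replicate 1 or 2 gave 30 or 18, and against epithelial-like cells 7 or 10. Without the library block all 3 counts were 0.

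Within gated cells, over the 30 members that are not gate genes, Cdc20 was the 1 called as different between classes. Its log2 change in gated mesenchymal-like cells exceeded that in gated endothelial-like cells by 1.02 (SE 0.205, adjusted p = 0.0425, edgeR), where 0.199% of all genes did so. In gated endothelial-like cells Cdc20 was 110 and 114 CPM in Dnmt1 CKO and 134 and 103 CPM in wild type. Without either Dnmt1 CKO library, or without the library block, it was not called. The lowest member was Cenpe at -0.61 (not called), with 275 and 309 CPM in gated Dnmt1 CKO mesenchymal-like cells and 401 and 472 CPM in gated wild-type ones. Against gated immune-like cells 0 members were called (0.0283% of all genes), 1 passed an unadjusted p under 0.05, leaving out Dnmt1 CKO replicate 1 or wild type replicate 1 gave 1 call, and Cdc20 had the highest difference, 1.34 (adjusted p = 0.111, edgeR), with Cdk1 lowest at -0.48. In gated immune-like cells Cdc20 was 85.0 and 70.3 CPM in Dnmt1 CKO and 117 and 89.5 CPM in wild type.

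Some genes of the p53 response and of G1 phase also rose. Cdkn1a (p21), the p53-induced inhibitor of cyclin-dependent kinases, had 104 and 140 CPM in Dnmt1 CKO mesenchymal-like cells, against 36.5 and 48.2 CPM in wild type, and 9 of 22 p53 targets tested rose (median 0.43), beside 6.97% of all genes tested. Within gated cells Cdkn1a was 105 and 152 CPM in Dnmt1 CKO and 59.5 and 72.2 CPM in wild type (log2 0.99, adjusted p = 0.084, edgeR). Of 13 genes of G1 phase, 3 rose over all mesenchymal-like cells beside the same 6.97% (the D cyclins Ccnd1 and Ccnd2, which start the cycle, and the inhibitor Cdkn2c) and Rbl2, a pocket protein of resting cells, fell. In gated cells Ccnd1 rose by 1.94 (adjusted p = 0.0376, edgeR).

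Transcripts of the germline gene Dazl were present in gated mutant cells. A Dazl UMI was seen in 61% and 53.8% of gated Dnmt1 CKO mesenchymal-like cells and in 0 and 0 of the 103 and 41 gated wild-type cells. In AT1-like cells, with median depths of 7409.5 and 5513.5 UMIs in Dnmt1 CKO and 5616 and 7605 in wild type, the share was 1.37% and 2.07% in Dnmt1 CKO and 0 and 0 in wild type.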

How the data were processed

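The deposited values are counts of UMIs per gene and barcode, which the authors made from 10x Chromium 3′ v3 libraries. The submitters' processing notes name Cell Ranger 3.1.0, bcl2fastq 2.20, Seurat and the build GRCm38.p6. No other step on the counts is given in the sources used here. Barcodes with under 500 genes or over 20% mitochondrial UMIs, and doublets called by Scrublet at an expected rate of 6% (96 and 80 in Dnmt1 CKO, 224 and 190 in wild type), were left out. Cells were clustered in scanpy 1.11.5 (2000 variable genes without cell cycle genes, 30 components, 15 neighbours, Leiden resolution 1.0) and clusters were named from marker lists. UMIs were summed per library and class, and Dnmt1 CKO was compared with wild type by the quasi-likelihood test of edgeR 4.0.16 (R 4.3.3, filterByExpr, TMM, prior count 2), with Benjamini-Hochberg adjustment over all genes tested and calls at 0.05. A log2 change is Dnmt1 CKO over wild type, and SE is that change over the square root of F. Sums needed at least 20 cells in every library, so gated mesothelial-like cells were not fitted. The gate genes were left out of counts and sums over gated cells, a choice made after seeing the data that changed no count of calls there with all libraries. Levels per gene count 3′ ends and are compared between libraries, not between genes. Values per library are named for the gate genes, the main cyclins and kinases, Cdc20 and the members with the highest and lowest change in each comparison. The members and lists were chosen with earlier results of these data known. Alternatives were DESeq2 1.42.0, RLE factors, other filters, gates, depths and clusterings, a replicate block, a sex term and leaving out each library. The fitting code was tested on simulated data. Sequences and gene starts come from RefSeq (GRCm38.p6) and gene positions from GENCODE vM21.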

Additional observations from a re-analysis of the deposited data

Results flagged for a closer look

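The following results differed between cell classes by a test of the difference itself, an interaction of class and genotype in edgeR with the library as a block. The change of 3 mitosis genes was higher in mesenchymal-like than in epithelial-like cells (1.67% of all genes). That of 30 was higher than in endothelial-like cells (3.0% of all genes), and that of 11 was higher than in immune-like cells (0.986% of all genes). Within gated cells the change of 1 mitosis gene was higher in mesenchymal-like than in endothelial-like cells (0.199% of all genes). This was Cdc20, by 1.02 on the log2 scale, with higher levels in 2 of 2 Dnmt1 CKO mesenchymal libraries. Without the library block all these counts were 0. The cause was not tested.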

How the results depend on the processing

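The replicate numbers of the labels state no pairing, and same-numbered libraries deviated together only weakly (correlations -0.0081 to 0.293 by class). With a replicate block, calls in mesenchymal-like cells were 35 members and 26 S phase genes over all cells (23 and 9 without it), 1 member in gated cells (0 without it) and 5 in cells with 0 gate genes (3 without it). Without a filter on low counts they were 35 members and 22 S phase genes over all cells and 1 member in gated cells. With a sex term they were 9 members and 2 S phase genes over all cells. In gated cells DESeq2 called 1, as did the fit with doublets kept. With no library block the class differences had 0 calls in place of 3, 30, 11 and, in gated cells, 1.
Leaving out each library in turn gave 5 to 36 members and 2 to 21 S phase genes over all mesenchymal-like cells, 0 to 1 members in gated mesenchymal-like cells, 0 to 2 in mesothelial-like cells and 0 to 1 in epithelial-like cells with 0 gate genes. The same gave class differences of 0 to 10 members against epithelial-like, 14 to 34 against endothelial-like and 0 to 30 against immune-like cells, and in gated cells 0 to 1 against both endothelial-like and immune-like cells. Where that left 1 library in a group, it was assumed to vary like the others.
The difference in gated share (Dnmt1 CKO minus wild type) was 3.75 points in mesenchymal-like cells and 5.02 with a gate of 2 genes. In epithelial-like cells it was 0.382 points, 0.715 without thinning, 0.686 with a gate of 2 genes and -0.00445 with a gate of 4. Thinning moved the difference in the log2 ratio of the mitosis to the S phase sum to 0.28 in all and -0.56 in gated epithelial-like cells, -0.13 in all and -0.17 in gated endothelial-like cells and 0.1 in gated immune-like cells, from -0.01, 0.13, -0.32, -0.37 and -0.16, gate genes being left out of gated sums. The cause was not tested. Other clusterings, RLE factors and stricter cell filters kept the count over all mesenchymal-like cells within 1.5 times. For single genes, 2857 of 3270 alternative values kept direction and side of the threshold. Each library held 41 to 228 gated mesenchymal-like cells.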

Other observations

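The level of Ect2, the activator of RhoA in cytokinesis, differed between cell types. It averaged 21.1 CPM over the 4 libraries in alveolar type 1-like cells (11.9 to 29.9), 12.9 CPM in alveolar type 2-like cells (10.5 to 15.8) and 21.3 CPM in general capillary-like cells (18.3 to 25.4). In matrix fibroblast-like cells it averaged 0.786 CPM (0 to 1.44) and in adventitial fibroblast-like cells 1.44 CPM (0 to 4.81). Cdk1 averaged 160 CPM in general capillary-like cells (113 to 190), 20 CPM in matrix fibroblast-like cells (15.7 to 22.8) and 3.16 CPM in alveolar type 1-like cells (0.683 to 7.86). These are levels of 1 gene across cell types, given as a description.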
